A study of Mus musculus with 24 samples.

Results

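The genes described here encode the proteins of the mitochondrial ribosome, chosen as every gene whose symbol begins with Mrpl or Mrps followed by a number. The array carried 132 probes for 76 such genes, among 19057 genes with a probe that names a single gene. Of these, 48 were Mrpl genes and 28 were Mrps genes. A probe was kept where its detection p was under 0.05 on 3 or more of the 6 arrays taken at any time. With this filter 72 of the 76 genes (45 Mrpl and 27 Mrps) were tested, among 9917 genes tested in all. Mrpl19, Mrpl32, Mrpl45 and Mrps14 had probes but none was detected on any array, so they have no tested value. The probe chosen for each gene was detected on all 24 arrays for 70 of the 72. The other 2 were Mrpl57 and Mrpl39. Mrpl39 was detected on 1 of 6 arrays at 48 h and 1 of 6 at 72 h, and is named here after its values were seen.

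Mitochondria keep their own ribosome, which translates the few proteins encoded by mitochondrial DNA, all of them core subunits of the respiratory chain and the ATP synthase. Its RNA comes from mitochondrial DNA, whereas its proteins are encoded in the nucleus, made in the cytosol and imported. Many of these proteins have a counterpart in bacterial ribosomes and others belong only to mitochondria. Osteoclasts, the multinucleated cells that resorb bone, are known for their many mitochondria and high oxidative metabolism.

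Transcript levels came from bone marrow-derived macrophages (BMMs) of C57BL/6 male mice aged 5 weeks. Floating bone marrow cells were grown with M-CSF at 30 ng/ml for 72 h. The attached cells then received M-CSF at 30 ng/ml with RANKL, the cytokine that drives osteoclast differentiation, at 100 ng/ml. Illumina bead arrays were run at 0 h (the control) and after 24 h, 48 h and 72 h of RANKL, 6 for each time and 24 in all. No culture received M-CSF alone for the same hours, so RANKL and time in culture cannot be told apart. No source used here gives the origin of the 6 samples of a time as separate cultures or animals. The p-values therefore rest on the scatter of these samples alone, and that scatter may be technical.

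Most osteoclast markers tested were higher at each later time than at 0 h. Of 15 tested, 11 rose and 3 fell at 24 h, beside 29.2% higher and 37.8% lower among all genes tested (adjusted p under 0.05). At 48 h 12 rose and 1 fell (33.1% and 39.2% of all genes), and at 72 h 13 rose and 1 fell (34.2% and 39.4%). Between 72 h and 48 h, 0 rose and 10 fell (17.4% and 19.4%), and Atp6v0d2 and Calcr, of the same list, had no kept probe. Mmp9, a matrix protease of osteoclasts with the largest rise of the list, was 20.7-fold higher at 48 h than at 0 h (adjusted p = 1.81e-38, limma). Markers of other cells moved as well. The 14 neutrophil markers tested had a summed signal of 64616.6 to 69829.5 at 0 h, 27895.3 to 29454.5 at 24 h, 25367.5 to 26828.9 at 48 h and 11911.3 to 13351.5 at 72 h. All 14 were lower at each later time than at 0 h (37.8%, 39.2% and 39.4% of all genes in order of time), and Mmp8 and Stfa3, of the same list, had no kept probe. The 8 erythroid and megakaryocyte markers tested, of 13 with a probe, had a summed signal of 9613.91 to 11566.1 at 0 h, 5308.45 to 6287.65 at 24 h, 3701.71 to 4390.59 at 48 h and 2735.57 to 3201.09 at 72 h. The 12 macrophage markers summed to 74983.3 to 80464.9 at 0 h, 69907.6 to 78553.7 at 24 h, 85913.6 to 94685.6 at 48 h and 82578.5 to 86653.3 at 72 h. Few markers of B cells (2), of T and NK cells (2) and of stromal cells (4) were tested, and Ms4a1, Cd3e and Col1a2 had no kept probe. The stromal markers summed to 569 to 620 at 0 h, 470 to 535 at 24 h, 771 to 874 at 48 h and 870 to 943 at 72 h. In the same order, the T and NK cell markers summed to 237 to 261, 207 to 240, 452 to 497 and 451 to 541, with 1 higher and 1 lower at 48 h than at 0 h. Those of B cells summed to 380 to 435, 260 to 284, 297 to 334 and 248 to 270. In these bulk samples fewer cells of a type and less RNA per cell cannot be told apart. The part that the changing mixture of cells plays in the results below was not tested.

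Transcripts of the mitochondrial ribosomal proteins fell broadly between 24 h and 48 h of RANKL and stayed low at 72 h. At 48 h against 0 h, 62 of the 72 members were lower and 6 were higher, beside 39.2% lower and 33.1% higher among all 9917 genes tested (limma, Benjamini-Hochberg adjusted p under 0.05 over all genes). The median log2 change of the members was -0.42, a 1.34-fold lower signal, whereas it was -0.03 over all genes. At 72 h against 0 h, 61 were lower and 5 higher, beside 39.4% and 34.2% of all genes, with a median log2 change of -0.45 in the members and -0.03 in all genes. Between 48 h and 24 h, 63 members were lower and 5 higher, beside 34.6% and 39.2% of all genes, with medians of -0.51 in the members and 0.03 in all genes. These comparisons share arrays, so their counts are not independent of each other.

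The first day looked different, and how different depended on the scaling of the arrays. At 24 h against 0 h, 31 members were higher and 7 lower with quantile normalization, beside 29.2% higher and 37.8% lower among all genes. When each array was scaled to its 75th percentile, 16 members were higher and 18 lower, beside 2261 higher and 4763 lower of all 9917 genes. When it was scaled to its median, 20 members were higher and 8 lower, beside 2862 higher and 3276 lower of all genes. The members' median log2 change was 0.10 with quantile normalization (-0.05 over all genes) and -0.04 with the 75th percentile (-0.13 over all genes). So the direction of the family at 24 h was not settled. The fall held under every scaling run, with 62 to 64 members lower at 48 h and 61 to 65 at 72 h. Among all 9917 genes, 3689 to 4322 were lower at 48 h and 3904 to 4495 at 72 h. Between 72 h and 48 h, 53 of the 72 members did not pass the test, 13 were lower and 6 higher, beside 19.4% lower and 17.4% higher among all genes, and the median log2 change was -0.02. The number of members lower was 8, 7 and 7 without replicate 1, 3 and 6, beside 1706, 1789 and 1705 of all genes.

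The array-by-array values showed the same course. The median over the members of the log2 signal minus its mean at 0 h lay between -0.03 and 0.06 on the 0 h arrays, between 0.06 and 0.16 at 24 h, between -0.42 and -0.38 at 48 h and between -0.48 and -0.41 at 72 h. The same median over all genes tested stayed between -0.05 and 0.02 on all 24 arrays. All 6 arrays at 48 h lay below all 6 at 0 h for 53 members, beside 29.0% of all genes, and above them for 4, beside 24.4% of all genes. At 72 h against 0 h, 49 members had all arrays below (29.3% of all genes) and 2 had all above (25.0%). For 48 h against 24 h these counts were 59 below (27.1%) and 1 above (29.9%). At 24 h against 0 h they were 4 below (26.3%) and 16 above (20.5%), and for 72 h against 48 h 3 below (11.2%) and 1 above (8.35%).

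**Figure D1:**
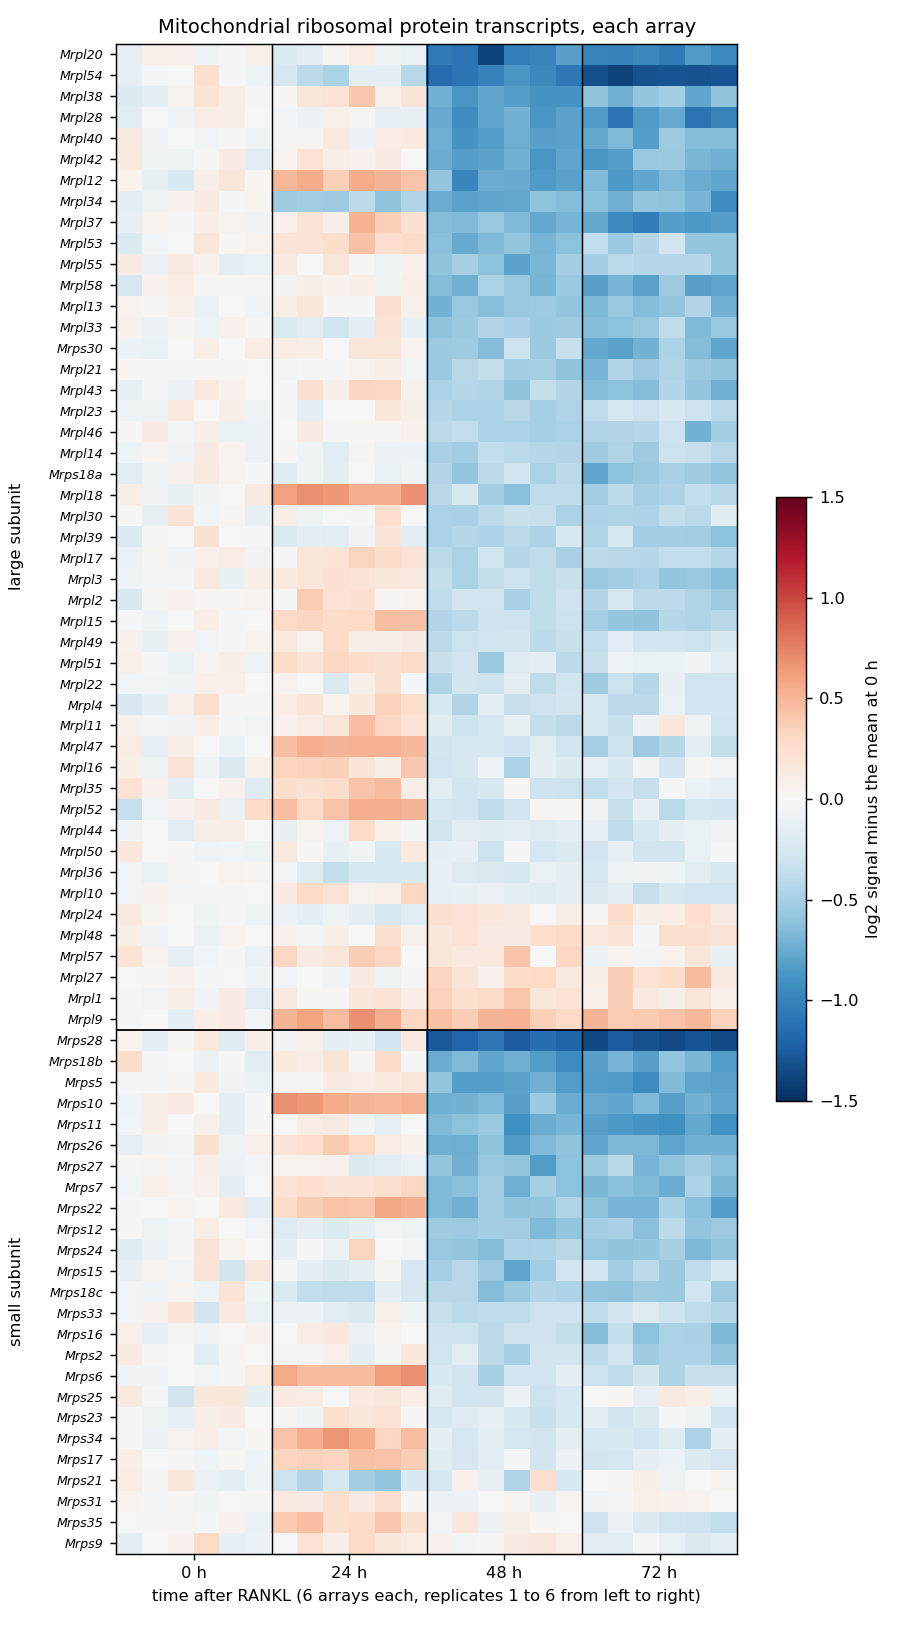
Each row is 1 of the 72 tested genes and each column 1 array, with replicates 1 to 6 from left to right at each time; colour gives the log2 signal minus that gene's mean at 0 h (red higher, blue lower), with large subunit genes above the black line and small subunit genes below it. Blue fills most rows at 48 and 72 h, with 62 and 61 of 72 members lower than at 0 h (39.2% and 39.4% of all genes). The 24 h columns are mixed, with 31 higher and 7 lower under quantile normalization (29.2% and 37.8% of all genes). When arrays are scaled to the 75th percentile, 16 are higher and 18 lower at 24 h (2261 and 4763 of all 9917 genes).

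The fall was moderate in size. At 48 h against 0 h, 22 members were lower by at least 1.5-fold with the test passed (12.2% of all genes) and 0 were higher by as much (10.8% of all genes). At 72 h against 0 h these counts were 23 (13.7%) and 0 (11.7%), and for 48 h against 24 h they were 30 (14.1%) and 0 (14.8%). For 72 h against 48 h both counts were 0, beside 2.63% lower and 1.1% higher. At 24 h against 0 h, 1 member was higher by at least 1.5-fold (8.29% of all genes) and 0 were lower by as much (9.71%). The members' log2 changes from 0 h ran between -1.18 and 0.42 at 48 h and between -1.32 and 0.42 at 72 h.

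**Figure D2:**
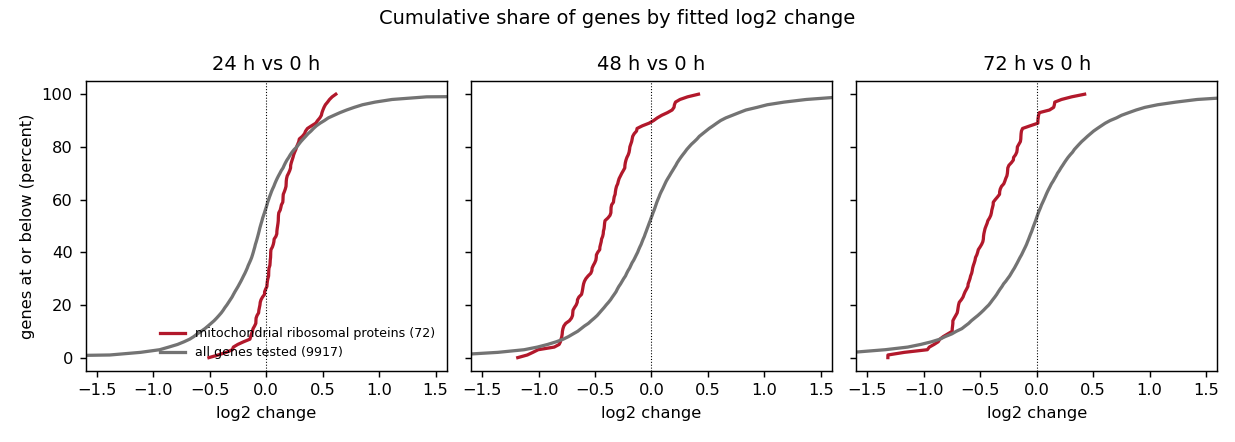
Each panel gives the cumulative percent of genes (y axis) at or below a fitted log2 change (x axis) for the 72 mitochondrial ribosomal protein genes (red) and all 9917 genes tested (grey), for 24, 48 and 72 h against 0 h. From its lower to its upper quartile the red curve lies to the left of the grey curve at 48 and 72 h (medians -0.42 and -0.45, against -0.03 in both for all genes). At the lower end the curves cross, since the lowest changes were -1.18 and -1.32 in the members and -4.54 and -4.77 in all genes. At 24 h the median of the red curve is 0.10 against -0.05, but -0.04 against -0.13 when arrays are scaled to the 75th percentile.

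Both subunits took part. Of the 27 Mrps genes, 23 fell and 0 rose at 48 h (39.2% and 33.1% of all genes), with a median log2 change of -0.49. Of the 45 Mrpl genes, 39 fell and 6 rose, beside the same shares of all genes, with a median of -0.41. At 72 h, 24 Mrps genes fell and 0 rose (median -0.53), and 37 Mrpl genes fell and 5 rose (median -0.41). Of all genes, 39.4% fell and 34.2% rose at 72 h. Mrps18a and Mrps30, though named for the small subunit, encode proteins that sit in the large one, and they are drawn there in the plot of all members. Grouped by structure, 24 of 28 large subunit proteins with a bacterial counterpart fell at 48 h (median log2 change -0.37), as did 17 of 19 without one (-0.45). So did 13 of 15 small subunit proteins with a counterpart (-0.51) and 8 of 10 without (-0.30), beside 39.2% of all genes. Differences between these groups were not tested.

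The promoters of the members were read for 4 short motifs in the 250 bases before the start of transcription listed by RefSeq (assembly GRCm38.p6). Factors of the ETS family and NRF1 are known for binding promoters of nuclear genes for mitochondrial proteins. A window was found for 67 of the 76 genes, and not for Mrpl4, Mrpl13, Mrpl15, Mrpl19, Mrpl38, Mrpl54, Mrps28, Mrps34 or Mrps35. Both strands were searched and matches of different motifs could overlap. The ETS core CCGGAAG was in 17 member windows (25.4%), beside 14.3% of 8075 windows of genes tested and 7.05% of all 27025 windows. The NRF1 core GCATGCG was in 8 (11.9%), beside 5.57% and 3.07%. The E-box CACGTG was in 5 (7.46%), beside 8.85% and 6.05%, and the YY1 core ATGGCGG was in 1 (1.49%), beside 3.72% and 2.19%. A match is a string of letters and not a site shown to be bound, and a window with no match says only that these letters are not in it.

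The windows of 6 members are shown, 5′ to 3′ on the gene's strand with matches in capitals, as examples of each kind of match among the genes described below. Mrpl18 and Mrpl53 were higher at 24 h under quantile normalization (the rise of Mrpl53 was lost with the 75th percentile scaling) and lower at 48 h, and Mrpl27 was higher at 48 h under quantile normalization only. All of them hold an ETS core, and Mrpl53 holds it on both strands. Mrps18b holds the NRF1 core on both strands, overlapping within CGCATGCG. Mrpl20, among the genes that fell most, holds an E-box. Mrpl12 holds none of the 4.
Mrpl18, chr17:12916092-12916341, minus strand: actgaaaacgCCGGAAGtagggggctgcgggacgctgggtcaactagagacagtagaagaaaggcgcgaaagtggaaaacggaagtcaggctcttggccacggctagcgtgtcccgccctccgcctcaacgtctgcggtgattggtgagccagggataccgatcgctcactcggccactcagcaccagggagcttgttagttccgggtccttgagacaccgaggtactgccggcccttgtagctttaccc
Mrpl53, chr6:83108858-83109107, plus strand: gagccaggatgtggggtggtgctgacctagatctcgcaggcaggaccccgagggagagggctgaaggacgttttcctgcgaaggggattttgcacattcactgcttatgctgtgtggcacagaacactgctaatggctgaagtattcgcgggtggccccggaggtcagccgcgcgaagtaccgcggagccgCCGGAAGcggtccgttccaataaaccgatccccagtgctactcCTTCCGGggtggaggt
Mrpl27, chr11:94653541-94653790, plus strand: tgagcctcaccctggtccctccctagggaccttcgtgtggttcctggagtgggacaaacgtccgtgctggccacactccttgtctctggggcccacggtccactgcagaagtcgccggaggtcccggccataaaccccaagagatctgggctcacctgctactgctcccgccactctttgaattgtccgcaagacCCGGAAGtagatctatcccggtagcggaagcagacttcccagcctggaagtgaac
Mrps18b, chr17:35916441-35916690, minus strand: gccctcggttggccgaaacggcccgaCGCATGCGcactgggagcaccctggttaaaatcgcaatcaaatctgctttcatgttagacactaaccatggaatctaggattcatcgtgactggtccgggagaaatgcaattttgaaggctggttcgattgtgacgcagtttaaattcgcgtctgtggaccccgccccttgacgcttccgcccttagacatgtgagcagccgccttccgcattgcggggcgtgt
Mrpl20, chr4:155802628-155802877, plus strand: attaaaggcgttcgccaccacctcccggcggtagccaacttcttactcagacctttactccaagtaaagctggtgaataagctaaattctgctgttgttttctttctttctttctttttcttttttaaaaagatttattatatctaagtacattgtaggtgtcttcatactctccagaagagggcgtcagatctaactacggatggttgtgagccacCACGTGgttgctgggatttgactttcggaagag
Mrpl12, chr11:120484387-120484636, plus strand: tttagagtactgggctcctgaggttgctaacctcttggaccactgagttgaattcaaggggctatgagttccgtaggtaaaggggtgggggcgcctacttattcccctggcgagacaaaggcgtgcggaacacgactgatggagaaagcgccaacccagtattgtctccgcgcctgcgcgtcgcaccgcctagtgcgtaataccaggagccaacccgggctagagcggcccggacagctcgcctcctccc

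Medians were below 0 at 48 h in members with and without a motif. The 17 tested members with an ETS core had a median log2 change of -0.43 at 48 h against 0 h, ranging between -0.72 and 0.21. The 47 without had a median of -0.36, ranging between -1.06 and 0.42. The 7 with an NRF1 core had a median of -0.41 and the 57 without -0.43. These medians are a description and were not tested.

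The members that fell most did so by about 2-fold. In the sentences below, 3 log2 signals given for a time are the lowest, the median and the highest of its 6 arrays. Changes are log2 changes ± SE with all 24 arrays in the fit, and adjusted p-values are from limma with Benjamini-Hochberg adjustment. Mrps28, a small subunit protein, had 10.92, 11.13 and 11.24 at 0 h, 9.83, 9.90 and 10.02 at 48 h and 9.73, 9.76 and 9.85 at 72 h. No array at 48 h or 72 h reached the lowest 0 h array. The 48 h signal was 2.27-fold lower than at 0 h (-1.18 ± 0.06, adjusted p = 3.48e-19) and the 72 h signal 2.49-fold lower (-1.32 ± 0.06, adjusted p = 1.12e-20). At 24 h the arrays overlapped those at 0 h and the change of -0.06 did not pass (adjusted p = 0.356), although with the 75th percentile scaling it was -0.19 and passed (adjusted p = 0.00854).

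Mrpl20, a large subunit protein that in bacteria acts early in assembly, had 11.25, 11.39 and 11.46 at 0 h, 9.99, 10.33 and 10.56 at 48 h and 10.31, 10.39 and 10.52 at 72 h. Its 48 h and 72 h arrays lay wholly below the 0 h arrays. The 48 h signal was 2.09-fold lower (adjusted p = 9.92e-17) and the 72 h signal 1.96-fold lower (adjusted p = 1.15e-15) than at 0 h. At 24 h Mrpl20 passed with the 75th percentile scaling (log2 change -0.22, adjusted p = 0.00636) but not with quantile normalization. Mrpl54, a large subunit protein without a bacterial counterpart, had 12.30, 12.41 and 12.68 at 0 h, 11.95, 12.11 and 12.29 at 24 h, 11.27, 11.39 and 11.56 at 48 h and 11.04, 11.13 and 11.14 at 72 h. It was lower than at 0 h at every later time, without overlap, by 1.23-fold, 2.04-fold and 2.49-fold in order of time (adjusted p = 3.92e-05, 2.13e-17 and 1.12e-20). It was also 1.22-fold lower at 72 h than at 48 h (adjusted p = 0.000218). Mrpl28, of the large subunit, had 12.69, 12.85 and 12.95 at 0 h, 11.92, 12.05 and 12.14 at 48 h and 11.73, 11.91 and 12.08 at 72 h. Neither later set of arrays overlapped the 0 h arrays, with 1.75-fold and 1.93-fold lower signals (adjusted p = 5.56e-15 and 5.34e-17). At 24 h Mrpl28 likewise passed with the 75th percentile scaling only among these 2 scalings (log2 change -0.25, adjusted p = 0.0017).

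Mrpl38, a mitochondria-specific large subunit protein, had 10.74, 10.77 and 10.90 at 48 h against 11.42, 11.64 and 11.83 at 0 h. The groups did not overlap, and the 48 h signal was 1.78-fold lower (adjusted p = 2.44e-14). At 72 h it was 1.55-fold lower than at 0 h (adjusted p = 2.74e-11), again without overlap. Mrpl37, of the same class, had 11.63, 11.76 and 11.85 at 0 h, 10.98, 11.09 and 11.19 at 48 h and 10.71, 10.91 and 10.99 at 72 h. All 48 h and 72 h arrays lay below the 0 h arrays, with 1.59-fold and 1.84-fold lower signals (adjusted p = 3.08e-12 and 1.73e-15).

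Some members were highest at 24 h and low afterwards. Mrpl18, which belongs to the central protuberance of the large subunit, had 10.26, 10.34 and 10.49 at 0 h, 10.90, 11.00 and 11.05 at 24 h and 9.74, 9.97 and 10.13 at 48 h. These sets of arrays did not overlap. It was 1.53-fold higher at 24 h than at 0 h (0.62 ± 0.06, adjusted p = 3.31e-12), the largest rise of any member then. Its 48 h signal was 2.06-fold lower than that at 24 h (-1.04 ± 0.06, adjusted p = 6.86e-19). Mrps10, of the small subunit head, had 10.86, 10.99 and 11.12 at 0 h, 11.49, 11.54 and 11.68 at 24 h and 10.18, 10.28 and 10.44 at 48 h. The same order held without overlap, with a 1.49-fold rise at 24 h (adjusted p = 3.15e-12) and a signal 2.41-fold lower at 48 h than at 24 h (adjusted p = 1.59e-22). All 3 of its kept probes rose at 24 h and fell at 48 h. The 24 h rises of Mrpl18, Mrps10, Mrpl12, Mrps6 and Mrpl9 passed under every scaling run.

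Mrpl12, Mrpl10 and Mrpl11 form the stalk of the large subunit and its base, where translation factors bind, and MRPL12 is also known to bind the mitochondrial RNA polymerase. Mrpl12 had 11.98, 12.25 and 12.37 at 0 h, 12.57, 12.71 and 12.77 at 24 h, 11.23, 11.43 and 11.61 at 48 h and 11.35, 11.45 and 11.55 at 72 h. Every 24 h array was above every 0 h array and every 48 h and 72 h array below. Its 24 h signal was 1.40-fold that at 0 h (adjusted p = 6.04e-09), and its 48 h signal was 1.73-fold lower than at 0 h (adjusted p = 2.81e-14). Its 48 h signal was 2.42-fold lower than that at 24 h (adjusted p = 1.65e-20). Mrpl11 and Mrpl10 moved less, being 1.42-fold and 1.24-fold lower at 48 h than at 24 h (adjusted p = 5.91e-08 and 3.56e-07). Their rises at 24 h over 0 h, 1.17-fold for Mrpl11 (adjusted p = 0.00461) and 1.13-fold for Mrpl10 (adjusted p = 0.00129), did not hold with the 75th percentile scaling, which gave log2 changes of 0.14 (adjusted p = 0.106) and -0.0041.

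Mrps6, whose bacterial counterpart pairs with S18 in the small subunit, had 11.30, 11.34 and 11.46 at 0 h, 11.83, 11.88 and 12.04 at 24 h and 10.86, 11.07 and 11.21 at 48 h. The groups did not overlap. Its 24 h signal was 1.46-fold that at 0 h (adjusted p = 1.38e-11), and its 48 h signal was 1.22-fold lower than at 0 h (adjusted p = 5.92e-06). Mrpl53, a mitochondria-specific large subunit protein, had 11.48, 11.69 and 11.85 at 0 h, 11.87, 11.94 and 12.12 at 24 h and 10.93, 11.03 and 11.10 at 48 h. Its 48 h signal was 1.57-fold lower than at 0 h (adjusted p = 1.50e-12) without overlap, and its 1.21-fold rise at 24 h (adjusted p = 8.94e-05) was lost with the 75th percentile scaling (log2 change 0.08, adjusted p = 0.269).

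**Figure D3:**
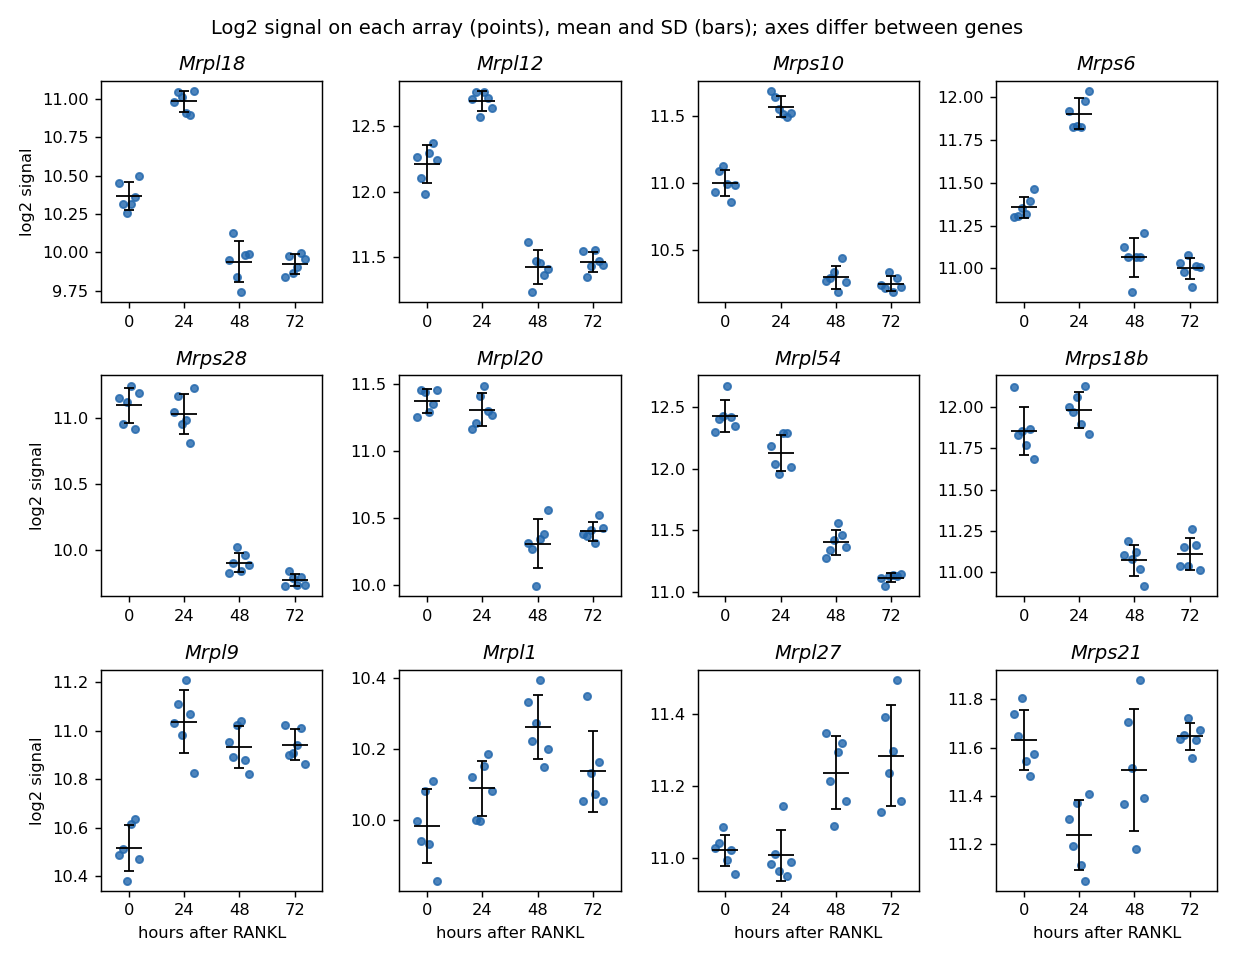
Each panel plots the quantile normalized log2 signal of 1 gene (y axis, own range in each panel) on every array at 0, 24, 48 and 72 h of RANKL (x axis, 6 points a time), with the mean and SD as bars. The probe chosen for each gene is drawn. Mrpl18, Mrpl12, Mrps10 and Mrps6 peak at 24 h and lie below their 0 h arrays at 48 h. Mrps28, Mrpl20, Mrpl54 and Mrps18b lie below their 0 h arrays at 48 and 72 h, and Mrpl54 does so already at 24 h. Mrpl9 stays above its 0 h arrays at all later times, whereas the rises of Mrpl1 at 72 h and of Mrpl27 were lost with the 75th percentile scaling.

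Mrpl9 was the member that stayed high. This large subunit protein had 10.38, 10.50 and 10.64 at 0 h, 10.82, 11.05 and 11.21 at 24 h, 10.82, 10.92 and 11.04 at 48 h and 10.86, 10.93 and 11.02 at 72 h. Every later array lay above every 0 h array. The signal was 1.43-fold, 1.33-fold and 1.34-fold higher than at 0 h in order of time (adjusted p = 3.11e-10, 3.37e-08 and 2.15e-08). Its second kept probe was also higher at each time, with log2 changes of 0.44, 0.51 and 0.60.

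The other members called higher at 48 h were Mrpl1, Mrpl24, Mrpl27, Mrpl48 and Mrpl57, all of the large subunit and all by at most 1.21-fold. Mrpl1, whose bacterial counterpart forms a mobile stalk where tRNA leaves the ribosome, had 10.15, 10.25 and 10.39 at 48 h against 9.83, 9.97 and 10.11 at 0 h. This was a 1.21-fold rise without overlap (adjusted p = 4.28e-05). At 72 h its 1.11-fold rise (adjusted p = 0.0145) was lost without replicate 2 (adjusted p = 0.124) and turned to -0.025 and -0.014 with median and 75th percentile scaling. Mrpl27, whose bacterial counterpart reaches into the peptidyl transferase centre, had 10.96, 11.03 and 11.09 at 0 h, 11.09, 11.25 and 11.35 at 48 h and 11.13, 11.27 and 11.49 at 72 h. All later arrays of these times lay above the 0 h arrays, by 1.16-fold and 1.20-fold under quantile normalization (adjusted p = 0.000816 and 7.22e-05). With the 75th percentile scaling its log2 changes were 0.074 and 0.072 and neither passed (adjusted p = 0.34 and 0.354). Likewise the 1.10-fold rise of Mrpl24 and the 1.15-fold rise of Mrpl48 at 48 h (adjusted p = 0.0154 and 0.000822) had log2 changes of 0.019 and 0.044 with the 75th percentile scaling (adjusted p = 0.799 and 0.54). Mrpl57 was dim, detected on 4 of 6 arrays at 0 h and at 72 h, and its 1.15-fold rise at 48 h (adjusted p = 0.00894) was lost without replicate 4 (adjusted p = 0.0558).

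The 7 members lower at 24 h than at 0 h were Mrpl24, Mrpl34, Mrpl36, Mrpl54, Mrps12, Mrps18c and Mrps21. The falls of Mrpl34, Mrps21, Mrpl54 and Mrps18c passed under every scaling run, whereas that of Mrpl24 did not pass with the authors' processed values (log2 change -0.12, adjusted p = 0.154) or median scaling (-0.13, adjusted p = 0.144). The fall of Mrps12 was lost with its second-highest kept probe (-0.0099, adjusted p = 0.889), with the mean of its kept probes (-0.072, adjusted p = 0.0619) and without replicate 1 (-0.12, adjusted p = 0.0529). Mrpl34, of the large subunit, had 11.83, 11.97 and 12.08 at 0 h, 11.36, 11.44 and 11.57 at 24 h and 11.16, 11.20 and 11.36 at 48 h. It was 1.42-fold lower at 24 h (adjusted p = 3.72e-10), the largest fall of any member then, and its 48 h signal was 1.65-fold lower than at 0 h (adjusted p = 3.32e-14), with no overlap in either. Mrps21, of the small subunit, had 11.48, 11.61 and 11.81 at 0 h, 11.05, 11.25 and 11.41 at 24 h, 11.18, 11.45 and 11.88 at 48 h and 11.56, 11.65 and 11.72 at 72 h. It was 1.31-fold lower at 24 h without overlap (adjusted p = 4.08e-05). At 72 h its arrays overlapped those at 0 h (log2 change 0.01, adjusted p = 0.882), although the 75th percentile scaling gave -0.17 (adjusted p = 0.0406). Its log2 change of -0.13 at 48 h did not pass (adjusted p = 0.152), but without replicate 5 it was -0.23 and passed (adjusted p = 0.00556). It also passed with the authors' processed values (-0.22, adjusted p = 0.0275), median scaling (-0.26, adjusted p = 0.00744) and the 75th percentile (-0.29, adjusted p = 0.00109).

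Mrps18a, Mrps18b and Mrps18c encode the mammalian relatives of bacterial S18, and all fell at 48 h. Mrps18b had 10.91, 11.09 and 11.19 at 48 h against 11.69, 11.84 and 12.12 at 0 h, a 1.72-fold lower signal without overlap (adjusted p = 6.36e-14). Mrps18c was 1.40-fold lower (adjusted p = 2.66e-09) and had already been 1.22-fold lower at 24 h (adjusted p = 4.44e-05). Mrps18a had a 1.35-fold lower signal at 48 h (adjusted p = 1.24e-08), then a 1.51-fold lower one at 72 h (adjusted p = 5.16e-12). Its change at 24 h passed with the 75th percentile scaling (log2 change -0.27, adjusted p = 0.000316) but not with quantile normalization. At 24 h Mrps18b did not pass by its chosen probe, whereas its second-highest kept probe rose (log2 change 0.50, adjusted p = 4.07e-10). The mean of the kept probes of Mrps18b also rose then (0.37, adjusted p = 1.49e-08). Mrps12, part of the decoding centre, was 1.48-fold lower at 48 h than at 0 h (adjusted p = 2.48e-13), with all 6 arrays below. Mrps30, which belongs to the large subunit, had 1.41-fold and 1.62-fold lower signals at 48 h and 72 h (adjusted p = 1.89e-09 and 3.31e-13). Mrpl44, a relative of ribonuclease III, moved little, being 1.14-fold lower at 48 h with overlapping arrays (adjusted p = 0.00472).

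Changes between 72 h and 48 h were small. Mrps35, of the small subunit, had 9.40, 9.46 and 9.67 at 72 h against 9.68, 9.77 and 9.93 at 48 h, a 1.22-fold lower signal without overlap (adjusted p = 4.14e-05). Between 48 h and 0 h its change did not pass (log2 change 0.02, 95% interval -0.08 to 0.13), whereas its 72 h signal was 1.20-fold lower than at 0 h (adjusted p = 4.09e-05). Mrps25, also of the small subunit, had 8.61, 8.75 and 8.86 at 72 h against 8.41, 8.47 and 8.64 at 48 h, a 1.19-fold rise with overlapping arrays (adjusted p = 0.00226). This call was lost with its second-highest kept probe (log2 change 0.069, adjusted p = 0.455) and with median scaling (0.19, adjusted p = 0.0757). Its probes differed, since at 72 h against 0 h the chosen probe changed by 0.01 (adjusted p = 0.897) and the second-brightest by -0.50.

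Of the 25 members with more than 1 kept probe, all kept probes gave the same call for 15 at 24 h, 20 at 48 h and 20 at 72 h against 0 h, and for 21 at 48 h against 24 h. Opposite calls against 0 h occurred in 2 genes. Mrpl15, of the large subunit, was higher at 24 h by its chosen probe (log2 change 0.35), whereas 1 of its other 6 probes was lower (-0.33). Mrpl48 was higher at 72 h by its chosen probe (0.16) under quantile normalization and lower by another (-0.22).

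Other lists of the mitochondrial translation system are described by their counts, beside 33.1% of all genes higher and 39.2% lower at 48 h against 0 h, with no test of a difference between lists. Of 3 tested mitoribosome proteins whose symbols do not begin with Mrp, all fell at 48 h against 0 h. Chchd1 was lower by 1.61-fold, Ptcd3 by 1.31-fold and Dap3 by 1.22-fold (adjusted p = 5.20e-16, 3.31e-07 and 3.05e-06). A list of 16 genes held mitochondrial translation factors and related genes such as Oxa1l, Lrpprc and Slirp. Of these, 11 rose and 0 fell at 24 h, beside 29.2% higher and 37.8% lower among all genes. These 24 h counts are with quantile normalization only. At 48 h 6 rose and 8 fell, and at 72 h 6 rose and 8 fell, beside 34.2% and 39.4% of all genes at 72 h. Oxa1l, which inserts newly made proteins into the inner membrane, was higher at 48 h by 2.10-fold (adjusted p = 1.26e-20), and the initiation factor Mtif2 by 1.54-fold (adjusted p = 3.67e-13). By contrast the initiation factor Mtif3 was 1.89-fold lower (adjusted p = 1.50e-15) and Pdf, the peptide deformylase, 1.62-fold lower (adjusted p = 4.11e-12).

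A list of 16 genes held mitochondrial aminoacyl-tRNA synthetases, which charge the tRNAs, and Qrsl1, Gatb and Gatc, which are not synthetases. Of these 16, 2 rose and 10 fell at 48 h, with a median log2 change of -0.19. Mars2, for methionine, was 2.11-fold lower (adjusted p = 3.35e-17) and Cars2, for cysteine, 1.52-fold lower (adjusted p = 1.65e-09). Wars2, for tryptophan, was 1.34-fold higher (adjusted p = 1.47e-05) and Fars2, for phenylalanine, 1.22-fold higher (adjusted p = 0.000179). Of 23 assembly factors of the mitoribosome, 3 rose and 14 fell at 48 h (median -0.24). Tfb1m, which methylates the small subunit RNA, was 1.55-fold lower (adjusted p = 2.12e-11) and Mpv17l2 1.54-fold lower (adjusted p = 2.00e-11). Trub2 was 1.37-fold higher (adjusted p = 1.97e-07) and the GTPase Gtpbp10 1.16-fold higher (adjusted p = 0.00108).

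Of 15 genes for mitochondrial DNA upkeep, transcription and RNA processing or decay, 5 rose and 7 fell at 48 h, with a median log2 change of 0.03. Top1mt, a topoisomerase, was 1.40-fold lower (adjusted p = 3.99e-10) and Polrmt, the mitochondrial RNA polymerase, 1.27-fold lower (adjusted p = 1.20e-06). The near-identical Mterf1a and Mterf1b were each 1.30-fold higher, and probes for such a pair may share signal.

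Ribosomal proteins of the cytosol moved in both directions at the later times, with smaller shares called each way than among all genes. Of 55 tested, 15 rose and 15 fell at 48 h (27.3% each), beside 33.1% higher and 39.2% lower among all genes. At 72 h 15 rose and 13 fell (27.3% and 23.6%), beside 34.2% and 39.4% of all genes. Their median log2 changes were 0.02 at 48 h and -0.0013 at 72 h. Most subunits of the respiratory chain and ATP synthase were lower already at 24 h. Of 68 tested, 5 rose and 41 fell at 24 h under quantile normalization (29.2% and 37.8% of all genes). At 48 h 3 rose and 53 fell (33.1% and 39.2% of all genes), and at 72 h 3 rose and 57 fell (34.2% and 39.4%). Median log2 changes of these 68 were -0.23, -0.33 and -0.40 in order of time. Per array, the median shift from the 0 h mean at 24 h lay between 0.06 and 0.16 for the mitochondrial ribosomal proteins under quantile normalization (their median turned to -0.04 with the 75th percentile scaling) and between -0.27 and -0.17 for the respiratory subunits. The difference between lists was not tested.

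**Figure D4:**
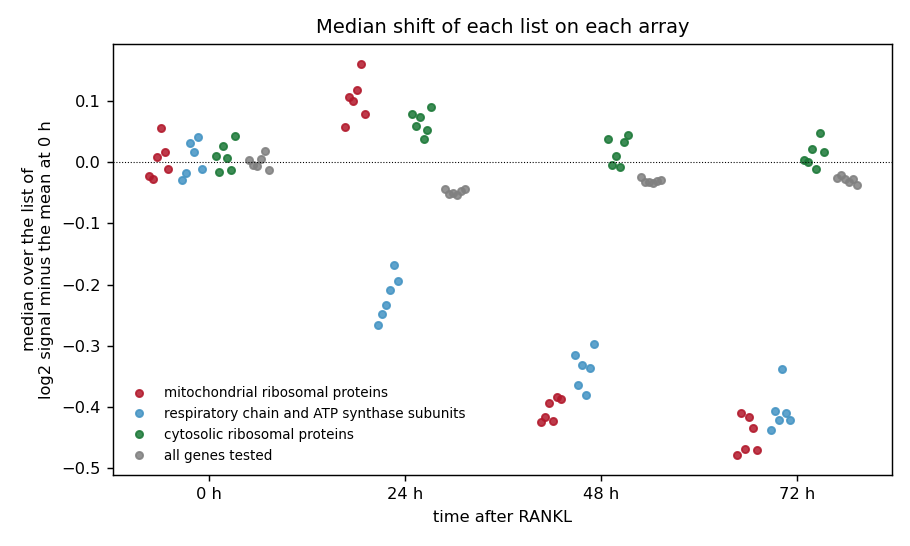
Each point is 1 array at 0, 24, 48 or 72 h of RANKL (x axis), and its height is the median over a list of the log2 signal minus that gene's mean at 0 h, for mitochondrial ribosomal proteins (red, 72 genes), respiratory chain and ATP synthase subunits (blue, 68), cytosolic ribosomal proteins (green, 55) and all genes tested (grey, 9917). The red points lie between -0.42 and -0.38 at 48 h and between -0.48 and -0.41 at 72 h, below the green and grey points, whereas at 24 h they lie between 0.06 and 0.16, a position above 0 that is lost when arrays are scaled to the 75th percentile. The blue points lie between -0.38 and -0.30 at 48 h, close to the red points, and between -0.44 and -0.34 at 72 h, overlapping them.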

How the data were processed

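Per the labels and the study's methods, labelled RNA of BMMs was hybridised to Illumina bead arrays. The authors deposited a signal intensity and a detection p-value per probe, read with GenomeStudio, without normalization between arrays. The labelling kit named in the labels differs from that in the methods. A second deposited table holds the authors' processed log2 values, with medians of 1.90 to 1.99 per array. Its scaling and centring are not stated in the sources used here, and it served as an alternative only.

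Log2 signals of 45281 probes were quantile normalized over 24 arrays with limma 3.58.1 in R 4.3.3. The platform annotation gives 1 gene symbol for 34885 probes, several for 18 and none for 10378. Of 18346 kept probes, 15558 carry 1 symbol, and each gene is represented by the brightest of them on average. All 24 arrays entered 1 fit (lmFit, contrasts.fit and eBayes with a trend), with Benjamini-Hochberg adjustment over 9917 genes. The fit was tested on simulated data. Median signals were 89.5 to 122 per array, 15781 to 17109 probes were detected, and arrays of a time correlated at 0.994 to 0.998. The number of arrays limits the precision.

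Named members were the 4 highest rises and the 4 deepest falls at each time against 0 h, the 3 largest in each direction for 48 h against 24 h and 72 h against 48 h, members chosen by role, members whose probes passed in opposite directions and members with no kept probe. Up to 2 rising and 2 falling genes of other mitochondrial lists were named by their change at 48 h. The members and lists were chosen with earlier results of these data known. Alternatives changed the background correction, the scaling, the filter, the probe chosen, the variance model, the test and the arrays used. Promoter windows are from RefSeq. Plots were drawn with matplotlib 3.10.9.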

Additional observations from a re-analysis of the deposited data

Results flagged for a closer look

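Within groups of 6 arrays, 9 of 124 groups (the named members and the members' median shift at each time) had an array far from the others, with a gap to the nearest that took most of the group's range (Dixon's test). Chance gives about 1 in 20. All are log2 signals. Mrpl54 at 0 h was highest in replicate 4, at 12.68, and at 72 h lowest in replicate 2, at 11.04. At 24 h, replicate 4 was highest for both Mrpl27, at 11.15, and Mrpl53, at 12.12. At 48 h, Mrpl44 was lowest in replicate 1, at 10.21. At 72 h, Mrpl1 was highest in replicate 2, at 10.35, Mrpl34 lowest in replicate 6, at 11.03, Mrpl48 lowest in replicate 3, at 11.24, and Mrps18c highest in replicate 5, at 11.24.

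Among the named members, 11 passed the test in opposite directions at 24 h and 48 h against 0 h, which share the 0 h arrays. Members were named partly for having the largest changes, which favours such calls, and their share over all genes was not counted. The log2 change of 48 h against 24 h, which tests the difference itself and passed for all 11 (limma, adjusted p under 0.05), was -1.28 for Mrpl12, -1.27 for Mrps10, -1.04 for Mrpl18, -1.01 for Mrpl38, -0.92 for Mrpl53, -0.92 for Mrpl37, -0.84 for Mrps6, -0.71 for Mrpl15, -0.50 for Mrpl11 and -0.31 for Mrpl10. Mrpl24 moved the other way, at 0.28. At 24 h the changes of Mrpl38 and Mrpl10 turned with the 75th percentile scaling, and those of Mrpl37 (log2 change 0.057, adjusted p = 0.470), Mrpl11 (0.14, adjusted p = 0.106) and Mrpl53 (0.084, adjusted p = 0.269) no longer passed. The 24 h calls of Mrpl38 and Mrpl10 were also lost with the authors' processed values and with median scaling, that of Mrpl37 with median scaling, and that of Mrpl38 with its other kept probes and without replicate 2. Mrpl24 did not pass at 24 h with the authors' processed values or median scaling, nor at 48 h with those or the 75th percentile scaling.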

How the results depend on the processing

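The fall of the members at 48 h and 72 h kept its direction under every alternative that was run. The counts of members higher and the sizes of the medians depended on the scaling, and the cause was not tested. With each array scaled to its 75th percentile, the numbers higher were 16 at 24 h against 0 h (18 lower, median log2 change -0.038), 3 at 48 h against 0 h (median -0.56), 1 at 72 h against 0 h (-0.60), 3 at 48 h against 24 h and 2 at 72 h against 48 h (-0.054). Among all 9917 genes the numbers higher were, in the same order, 2261 (4763 lower), 2729, 2741, 4057 and 1337. With median scaling the numbers of members higher were 20 at 24 h against 0 h, 3 at 48 h against 0 h (-0.54), 1 at 72 h against 0 h (-0.61), 1 at 48 h against 24 h (-0.60) and 0 at 72 h against 48 h (-0.089). Of all genes, 2862, 2790, 2573, 3161 and 800 were higher. With the authors' processed values, 26 members were higher and 8 lower at 24 h against 0 h, and 3 were higher at 48 h against 0 h (-0.50), 1 at 72 h against 0 h (-0.55), 3 at 48 h against 24 h (-0.56) and 1 at 72 h against 48 h (-0.070). Of all genes, 2984 (3215 lower), 3166, 3107, 3527 and 984 were higher. With the second-highest kept probe, which only 25 members have, the numbers higher and lower were 14 and 2 at 24 h against 0 h (0.19), 2 and 21 at 48 h against 0 h, 3 and 22 at 72 h against 0 h (-0.36), 1 and 22 at 48 h against 24 h (-0.55), and 3 and 1 at 72 h against 48 h. Among all 3834 genes with such a probe they were 1349 and 1249, 1425 and 1294, 1520 and 1294, 1418 and 1345, and 703 and 553. Student's t-test (equal variance) was also run with Bonferroni adjustment over all 9917 genes. The paper names this test for most of its comparisons but none for the arrays. It called 5 members higher and 1 lower at 24 h against 0 h, 0 and 33 at 48 h against 0 h, 1 and 32 at 72 h against 0 h, 0 and 39 at 48 h against 24 h, and 0 and 0 at 72 h against 48 h, where limma called 6 and 13. Among all genes it called 1047 and 1240, 1317 and 1550, 1381 and 1651, 1763 and 1687, and 219 and 413.

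Leaving out each replicate number in turn gave 60 to 63 members lower at 48 h against 0 h, 58 to 61 at 72 h, 62 to 63 at 48 h against 24 h and 26 to 31 higher at 24 h. Among all 9917 genes these numbers were 3743 to 3870, 3768 to 3919, 3311 to 3416 and 2748 to 2878. The number of members lower at 72 h against 48 h ran from 7 to 15 (1705 to 1892 of all genes), and was 8, 7 and 7 without replicates 1, 3 and 6. Of the values of single named members, 2403 of 2595 kept their direction and side of the threshold, 146 no longer passed and 34 newly passed. Those that turned were, at 72 h against 0 h, Mrpl1 (-0.025 and -0.014), Mrpl48 (-0.045 and -0.034) and Mrpl24 (-0.031 and -0.019) with median and 75th percentile scaling, Mrps21 (-0.17) with the 75th percentile, and Mrps25 with the mean of its kept probes (-0.16) or its second probe (-0.50). At 24 h against 0 h Mrpl38 (-0.0075) and Mrpl10 (-0.0041) turned with the 75th percentile, and at 72 h against 48 h Mrpl38 (-0.049) with its second probe.

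No source used here ties same-numbered arrays to a shared origin, and whether they share one is not known. Their deviations from the group means correlated at -0.21 to 0.49 (median 0.14) over 36 pairs, and 10 of 24 arrays correlated best with their own number. With the replicate number as a block, the numbers of members higher and lower were 32 and 8 at 24 h against 0 h, 6 and 62 at 48 h, 5 and 62 at 72 h, 5 and 63 at 48 h against 24 h and 7 and 16 at 72 h against 48 h. Among all 9917 genes they were 3010 and 3919, 3405 and 4026, 3479 and 4021, 3987 and 3510, and 1965 and 2125. Of 150 values of named members the block changed the call of 4: Mrpl11 at 72 h against 0 h (adjusted p = 0.0123) and against 48 h (0.0493), Mrpl28 at 72 h against 48 h (0.0224) and Mrps18b at 24 h against 0 h (0.0331) newly passed. Dim probes limit 4 members, which were never detected, Mrpl39, which was detected on 1 of 6 arrays at 48 h and at 72 h, and Mrpl57.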

Other observations

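The 4 members with no kept probe gave signals near background on all 24 arrays. The medians of their 6 probes (2 each for Mrpl19 and Mrpl45, 1 each for Mrpl32 and Mrps14) at the 4 times lay between 6.20 and 6.74 on the log2 scale. Of these, 1 probe of Mrpl45 had 6.69, 6.74 and 6.76 (lowest, median and highest) at 24 h against 6.37, 6.54 and 6.62 at 0 h, with a detection p of at least 0.05 on every array.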
